A study of Bos taurus with 18 samples.

Results

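The comparison described here is the change in bovine satellite cells after 72 h of serum-free differentiation on a DMEM base. Its members are 6 of the 18 libraries of the series, 3 from cells in the DMEM-based differentiation medium at 72 h (DMEM) and 3 from the serum-free growth medium at 0 h (SFGM) in which those cells had been grown. They are described across the 14637 of 27607 gene identifiers that passed an expression filter. All cells were satellite cells of the Belgian Blue breed, grown on collagen-coated flasks, and poly(A) RNA was sequenced with 75 bp reads. The other media of the series serve as reference. SFDM has the same serum-free differentiation medium but a DMEM/F-12 base, and SFB is a serum-free base medium, both sampled at 72 h after growth in SFGM. GM is growth medium with 20% FBS (fetal bovine serum) at 0 h, and DM is differentiation medium with 2% FBS, given for 72 h to cells from GM. The labels call replicates A, B and C biological and do not say whether they came from separate animals, so the tests speak for the spread between these 3 samples, which may be technical. No SFGM library was made at 72 h, so the change of medium and the time in culture cannot be told apart.

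Satellite cells are the resident stem cells of skeletal muscle. When they differentiate they leave the cell cycle, switch on the muscle regulatory transcription factors, fuse into multinucleated myotubes and build the contractile apparatus, so that proliferation genes are lost and sarcomere, calcium handling and muscle metabolism genes are gained. In culture this is classically started by lowering the serum, and a serum-free medium has to bring it about with defined components. The identifiers in the files are Ensembl bovine gene identifiers, and none of them was paired with a gene name in the sources used here. The genes are therefore described by the size and direction of their change and by their level, with 4 identifiers as examples, and the labelled cell type was not checked against marker genes.

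The DMEM and SFGM libraries held 23664633 to 28589018 counts assigned to genes. The 12970 identifiers that did not pass the filter carried at most 0.0289% of the counts of any library. Of these, 8478 had no count in any DMEM or SFGM library and 4492 had at least 1. Distances between libraries were taken as root mean square differences in log2 CPM (counts per 1000000 counts of the library) over the genes tested. DMEM libraries lay 1.18 to 1.22 log2 units from SFGM libraries and at most 0.469 from each other. Their distances to SFB (0.719 to 0.824) and to SFDM (0.728 to 0.842) overlapped, and those to DM (0.891 to 1.02) were greater. The DMEM replicates were less alike than the SFGM replicates, which lay at most 0.293 apart. Replicates of the other 72 h media were similarly spread, at most 0.475 apart in DM, 0.467 in SFB and 0.429 in SFDM. The widest DMEM pair was A and C by the chi-square of their counts (41.9 per degree of freedom, against 10.2 for A and B and 14.1 for B and C).

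Differentiation in DMEM changed 9273 genes (63.4% of those tested, edgeR quasi-likelihood test, Benjamini-Hochberg adjusted p under 0.05), of which 4692 rose (32.1%) and 4581 fell (31.3%). Rises made up 50.6% of the calls, 52.2% with scaling by RLE size factors and 45.3% with scaling by library totals alone, so the balance of their numbers turned with the scaling. Large rises outnumbered large falls. At least 2-fold rises numbered 2051 (14% of genes tested) and at least 2-fold falls 1542 (10.5%). At 10-fold or more there were 369 rises and 165 falls, while below 1.5-fold there were 1492 rises and 1816 falls. In bulk RNA, a change in the share of cells that express a gene and a change in the RNA per cell cannot be told apart. All 3 DMEM libraries lay above all 3 SFGM libraries for 5010 genes (34.2%) and below them for 5041 (34.4%), and 166 of the 9273 genes called had overlapping libraries.

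**Figure D1:**
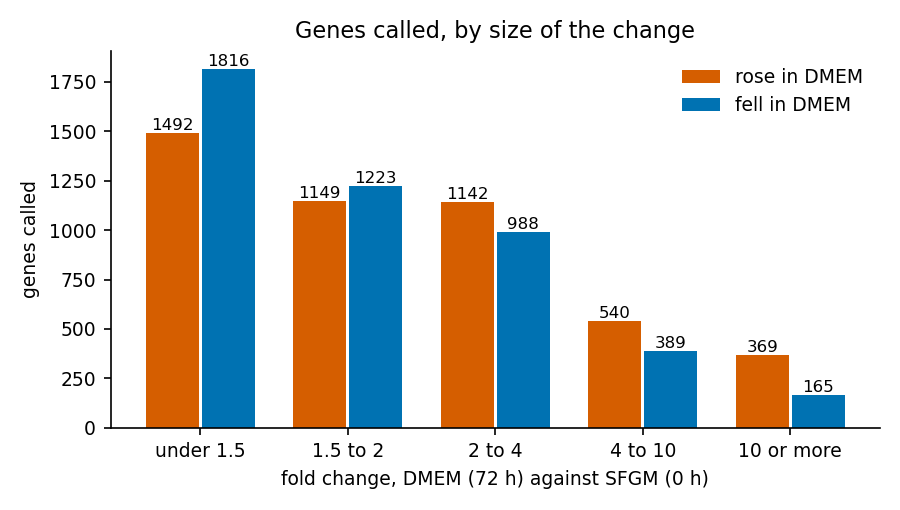
Number of genes called in DMEM at 72 h against SFGM at 0 h (vertical axis), by the size of the fold change (horizontal axis), with rises and falls as separate bars and the count above each bar. Falls outnumber rises below 2-fold and rises outnumber falls above it, at 369 against 165 for 10-fold or more.

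Rises were more frequent among weakly expressed genes and falls among abundant ones. Among the 2124 genes with a mean below 1 CPM in SFGM, 962 rose (45.3%) and 225 fell (10.6%). Among the 3455 genes between 1 and 10 CPM, 1263 rose and 822 fell. The direction of the balance turned above that level. Of the 7097 genes between 10 and 100 CPM, 2023 rose (28.5%) and 2551 fell (35.9%), and of the 1961 genes at 100 CPM or more, 444 rose (22.6%) and 983 fell (50.1%). Bands set by the SFGM level alone favour this order, because a low value in the SFGM libraries both places a gene in a low band and raises its fold change. The expression filter favours it too, since a gene with few or no counts in SFGM passed only through its counts in another medium. Most falls of abundant genes were small, since 215 of the 983 reached 2-fold. The genes that rose 10-fold or more had a median of 0.118 CPM in SFGM and 3.505 CPM in DMEM, and those that fell 10-fold or more went from a median of 7.05 to 0.449 CPM. No count was found in any SFGM library for 40 of the genes that rose at least 2-fold, and in any DMEM library for 10 of those that fell.

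The identifier with the largest rise was ENSBTAG00000021685. It stood at 0.272, 0.0331 and 0.0373 CPM in SFGM replicates A, B and C, from 7, 1 and 1 counts, and at 191, 163 and 119 CPM in DMEM. All DMEM libraries lay far above all SFGM libraries. The ratio of summed counts scaled to library size was 1468-fold (log2 fold change 10.44 ± 0.41, approximate SE, edgeR adjusted p = 6.83e-13). Its 95% exact counting interval of 773 to 3211 covers counting error only. SFGM replicate A held 7 of the 9 counts, and without it the log2 fold change was 11.94. This identifier was also high in DM, at 135, 122 and 152 CPM, a range that the DMEM libraries spanned. It was lower in the other serum-free media at 72 h, at 10.02 to 12.3 CPM in SFDM and 1.96 to 4.30 CPM in SFB. Against SFGM it rose in both (log2 fold change 6.62 in SFDM and 4.75 in SFB, edgeR adjusted p = 1.83e-09 and 1.84e-06). DMEM was 14.1-fold above SFDM (edgeR adjusted p = 1.37e-09). The response in DMEM was not shown to differ from that in DM (log2 difference 1.05 ± 1.01, approximate SE, edgeR adjusted p = 0.441).

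ENSBTAG00000008329 had the next largest rise, with a different order of media. It had 1, 1 and 0 counts in the SFGM libraries and reached 27.3, 31.8 and 34.9 CPM in DMEM. The ratio of summed counts was 1288-fold, with a 95% exact counting interval of 356 to 10644 (edgeR adjusted p = 1.99e-12). SFDM was higher still, at 52.6, 61.8 and 80.7 CPM, and every SFDM library lay above every DMEM library (2.08-fold, edgeR adjusted p = 0.000156). DM stood at 12.2 to 13.5 CPM and SFB at 7.95 to 13.2 CPM, and these ranges overlapped. All DMEM libraries were above both. The response was not shown to differ between DMEM and DM (log2 difference 1.77 ± 1.68, approximate SE, edgeR adjusted p = 0.438).

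Both identifiers with the largest falls were abundant in SFGM and below 5 CPM in every library at 72 h. ENSBTAG00000009012 stood at 275, 279 and 253 CPM in SFGM and at 1.74, 2.09 and 1.88 CPM in DMEM, so that the groups were far apart. It was 142-fold lower in DMEM (log2 fold change -7.14 ± 0.11, SE, edgeR adjusted p = 3.27e-17). In GM it stood at 16.05 to 18.1 CPM and in DM at 1.09 to 1.29 CPM, and SFDM was lowest at 0.743 to 0.839 CPM. ENSBTAG00000023659 stood at 167, 160 and 197 CPM in SFGM and at 2.46, 1.81 and 1.04 CPM in DMEM (98.7-fold lower, edgeR adjusted p = 7.11e-12). For this identifier DMEM replicate C lay within the range of SFB (0.584 to 1.49 CPM) and SFDM (0.578 to 1.29 CPM), and replicates A and B lay above both. It was at 2.49 to 4.61 CPM in DM and at 48.1 to 84.2 CPM in GM.

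**Figure D2:**
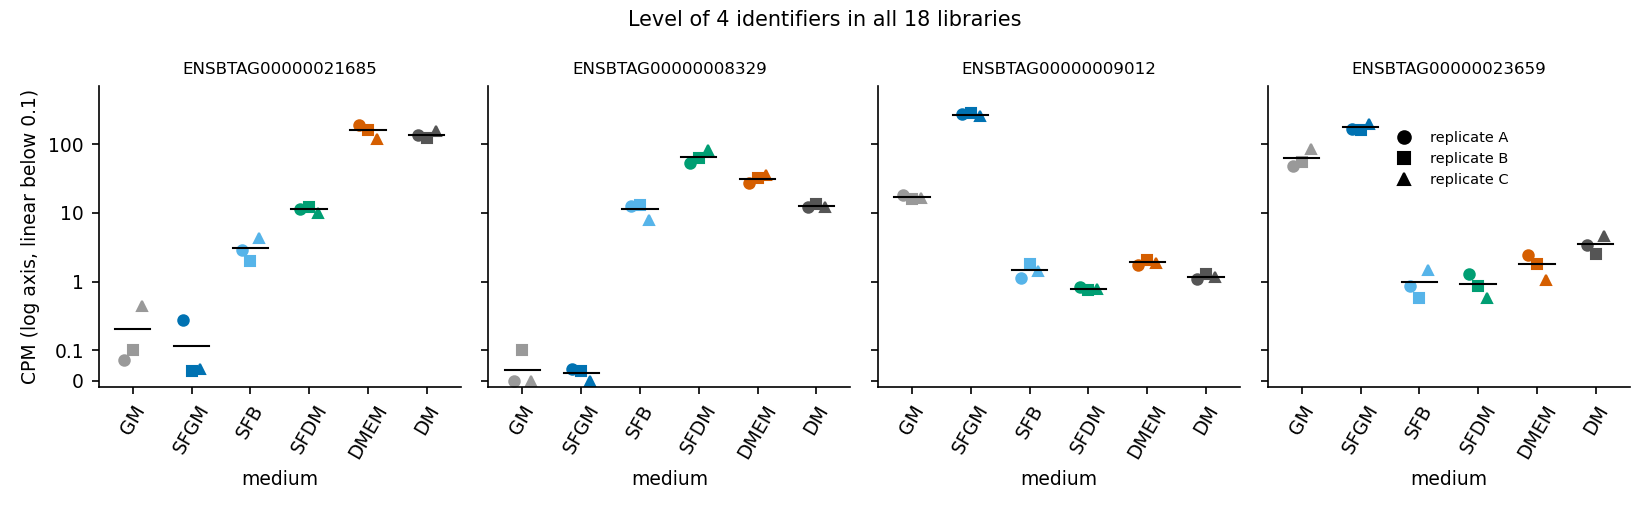
Level of the 4 identifiers in CPM (vertical axis, logarithmic above 0.1 and linear below) in each of the 18 libraries, by medium, with a symbol per replicate and a line at the mean of 3. ENSBTAG00000021685 is high in DMEM and DM, ENSBTAG00000008329 is highest in SFDM, and the 2 identifiers that fell are highest in SFGM, at 253 to 279 CPM and 160 to 197 CPM.

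Genes that went from near absence to a clear level were grouped as switched on, with a mean below 1 CPM in SFGM and at least 10 CPM in DMEM, and the reverse as switched off. There were 47 of the first kind and 7 of the other kind. The median level of the 47 switched-on genes was 0.466, 0.430 and 0.448 CPM in SFGM replicates A, B and C and 18.7, 16.2 and 17.0 CPM in DMEM. In SFDM it was 15.5 to 20.5 CPM, which overlapped with DMEM, and in SFB it was 5.14 to 5.74 CPM, below every DMEM library. Of the 47, 32 reached a mean level of 10 CPM or more in SFDM, 27 did so in DM and 10 in SFB. That limit is the one by which they were chosen in DMEM. A mean below 1 CPM remained for 2 of them in SFDM, 2 in DM and 3 in SFB. Their median log2 fold change against SFGM was 5.49 in DMEM, 5.68 in SFDM and 3.89 in SFB. DMEM and SFDM still differed for most of them, with 21 higher in DMEM and 18 lower (background 24.2% higher and 22.4% lower among all genes tested), although the medians of the group were alike. In DM against GM, 44 of the 47 rose and 1 fell, where 34.2% of all genes tested rose. The 7 switched-off genes had a median of 11.5 to 12.8 CPM in SFGM and 0.498 to 0.667 CPM in DMEM. Their median was 0.930 to 1.02 CPM in DM, 2.00 to 2.55 CPM in SFDM and 3.17 to 3.84 CPM in SFB, all above every DMEM library. Both groups were chosen on the levels in these DMEM and SFGM libraries, which favours extreme values there. With limits of 1 and 5 CPM, 104 genes were switched on and 35 switched off.

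The response to DMEM was next set against serum-based differentiation, DM against GM, which shares no library with it. The larger the change in DMEM, the more often the gene moved the same way with serum. Of the genes that rose less than 1.5-fold in DMEM, 60.5% rose in DM and 12.6% fell. Of those that rose 2- to 4-fold, 78.4% rose and 5.43% fell, and of the 369 that rose 10-fold or more, 85.1% rose and 2.17% fell. The background was 34.2% of genes tested rising and 35.6% falling in DM. Genes that fell followed the same order. Falls in DM made up 68.0% of the genes below 1.5-fold, 80.0% at 2- to 4-fold and 91.5% of the 165 genes at 10-fold or more, of which 4 rose. The bands were chosen on the fold change in DMEM. Genes that rose 2- to 4-fold had a median log2 fold change of 1.38 in DMEM and 1.38 in DM, those that rose 4- to 10-fold had 2.54 and 2.81, and those that rose 10-fold or more had 4.38 and 4.06. For falls the medians were -1.31 and -1.30, -2.56 and -2.66, and -3.77 and -3.67 in the same bands. Movement in the same direction was not particular to DM. Genes that rose at least 2-fold in DMEM had median log2 fold changes of 1.91 in DM, 1.65 in SFDM and 1.35 in SFB. Those that fell at least 2-fold had -1.62, -1.27 and -0.98. SFDM and SFB were set against the same SFGM libraries as DMEM, which favours the same direction.

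**Figure D3:**
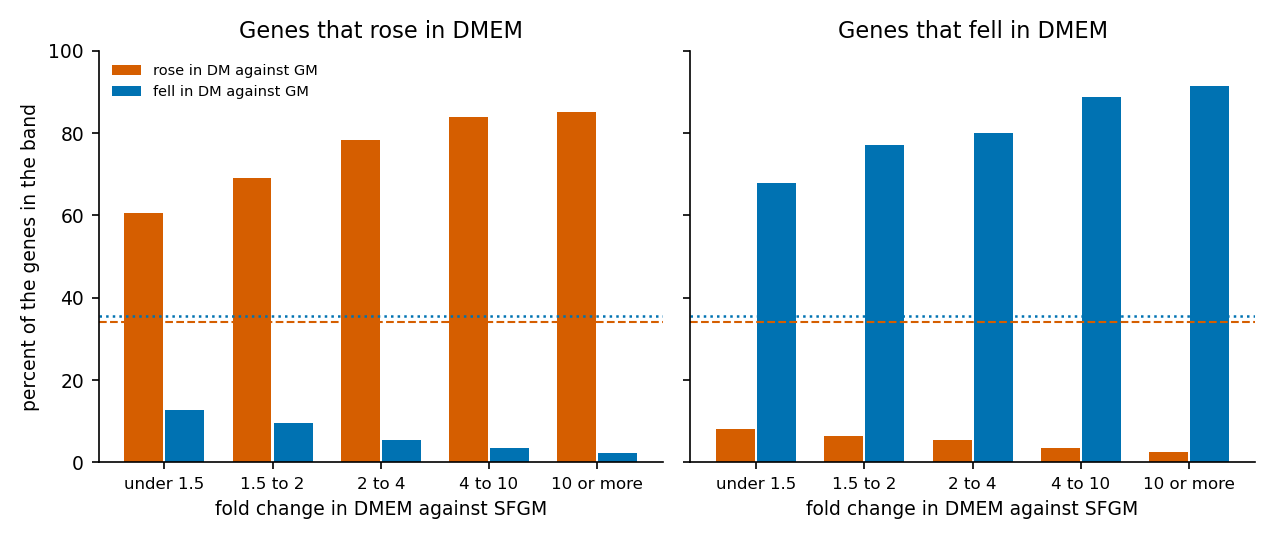
Share of genes (vertical axis, percent) that rose or fell in DM against GM, by the fold change of the same genes in DMEM against SFGM (horizontal axis), for genes that rose (left) and fell (right) in DMEM. The dashed line marks the 34.2% of all genes tested that rose in DM and the dotted line the 35.6% that fell. Same-direction bars grow from 60.5% to 85.1% on the left and from 68.0% to 91.5% on the right.

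Gene by gene, the sizes of both responses often differed. The test of the difference, the log2 response in DMEM minus that in DM, called 5874 genes (40.1%), 2976 with a higher value in DMEM (20.3%) and 2898 with a lower one (19.8%; edgeR quasi-likelihood test, Benjamini-Hochberg adjusted p under 0.05). Each response was taken from its own 0 h medium, SFGM or GM. A difference in starting level alone can therefore give a call, and a smaller rise need not mean a lower level at 72 h. Of the 3360 genes that rose in both, 1234 rose less in DMEM, 317 rose more and 1809 were not shown to differ. Of the 3462 genes that fell in both, 1021 fell less in DMEM, 243 fell more and 2198 were not shown to differ. A further 387 genes rose in DMEM and fell in DM, and 298 fell in DMEM and rose in DM. All of these genes passed the test of the difference, which called changes in opposite directions make nearly certain. Of the 945 genes that rose in DMEM without a call in DM, 485 passed the test of the difference, and of the 821 that fell without a call in DM, 361 did. Opposite movement was less common at large changes, with 89 of the 2051 genes with a rise of 2-fold or more in DMEM falling in DM.

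Genes with a rise of 2-fold or more reached a higher typical level in DMEM than in any other medium but a smaller share of the RNA than in SFDM or DM. Their median level was 1.55 to 1.57 CPM in SFGM, 6.96 to 7.66 in DMEM, 5.93 to 6.21 in SFDM, 5.90 to 6.67 in DM and 4.25 to 4.39 in SFB. All 3 DMEM libraries lay above those of every other medium. The genes were chosen for their rise in these DMEM libraries, which favours a high level there. Their share of all counts went from 4.45% ± 0.0322 in SFGM (SD, n = 3) to 16.7% ± 0.0718 in DMEM. This was above SFB (13.3% ± 0.757) but below SFDM (21.2% ± 0.175) and DM (24.8% ± 0.667), with no overlap between the libraries of DMEM and those of the others. A comparison of 3 with 3 libraries allows no exact two-sided permutation p below 0.1, so these shares are described by their overlap.

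The genes that fell at least 2-fold were lowest in DMEM and DM. Their share of the counts was 10.7% ± 0.0937 in SFGM, 3.25% ± 0.0229 in DMEM and 3.25% ± 0.0405 in DM (SD, n = 3), where the libraries of DMEM and DM overlapped. SFDM kept 4.15% ± 0.0222 and SFB 5.38% ± 0.190, each above every DMEM library. By median level they stood at 4.17 to 4.49 CPM in DMEM, 4.51 to 4.65 in DM, 6.36 to 6.77 in SFDM and 7.24 to 8.85 in SFB, against 16.2 to 16.6 in SFGM. Choice on the DMEM libraries favours a low level there too.

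**Figure D4:**
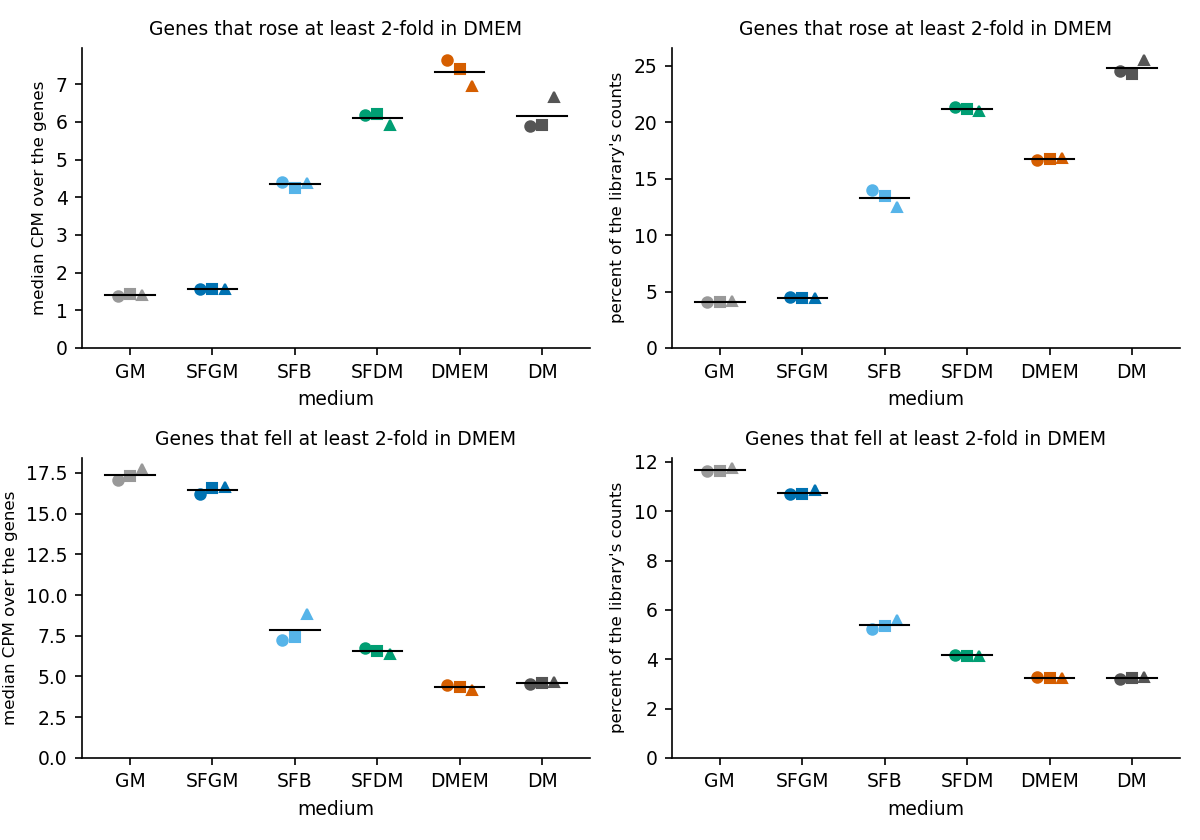
Median level in CPM (left) and share of all counts in percent (right) of the 2051 genes that rose at least 2-fold (top) and the 1542 that fell at least 2-fold (bottom) in DMEM against SFGM, in each of the 18 libraries, with a line at the mean of 3. The rising genes have their highest median in DMEM, at 6.96 to 7.66 CPM, but a share of 16.7% there, below 21.2% in SFDM and 24.8% in DM.

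The smaller share of the rising genes in DMEM than in SFDM had to lie mainly in the abundant ones, which hold most of their counts. Rising genes between 1 and 10 CPM held 0.417% of the counts in DMEM and 0.336% in SFDM. Among the 241 rising genes with a mean of at least 100 CPM over all 18 libraries, 123 were lower in DMEM than in SFDM and 84 higher, with a median log2 difference of -0.31 (edgeR, direct contrast of DMEM with SFDM). These 241 genes took 13.4% of the counts in DMEM, 17.97% in SFDM and 21.2% in DM. Among the 707 rising genes between 1 and 10 CPM the balance was the other way, with 309 higher and 160 lower and a median of 0.37. Over all genes tested the medians in these bands were -0.02 and 0.06. The abundant and the scarce genes behaved differently when the choice of genes was moved to libraries outside the contrast. When genes were taken for a rise of 2-fold or more in DM against GM, the 359 at 100 CPM or more kept a median of -0.38, with 194 lower in DMEM and 95 higher, whereas the 830 between 1 and 10 CPM had a median of -0.000538, with 239 higher and 236 lower. The lower level of abundant rising genes in DMEM was thus seen with both choices, and the higher level of scarce ones with the choice on DMEM alone. The choices are not independent. Of the 2051 genes, 1662 also rose in DM (81.0%, against 34.2% of all genes tested), and the level bands include the DMEM and SFDM libraries.

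The smaller share was the net of gains and losses, and most of that net lay in 10 genes. Over the 2051 rising genes, DMEM minus SFDM came to -4.44 percentage points of the counts, the sum of -8.32 over genes with a lower share and 3.88 over genes with a higher one. The 10 genes with the largest deficit, chosen after their values were seen, together made -4.06 of the -8.32. They took up 0.739% of the counts in SFGM, 3.54% in DMEM, 7.60% in SFDM and 8.09% in DM. Their log2 differences between DMEM and SFDM, by which they were in effect chosen, ran from -2.14 to -0.76. All 10 rose in DM and rose less in DMEM than in DM. Their mean levels in DMEM were 802 to 8150 CPM.

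**Figure D5:**
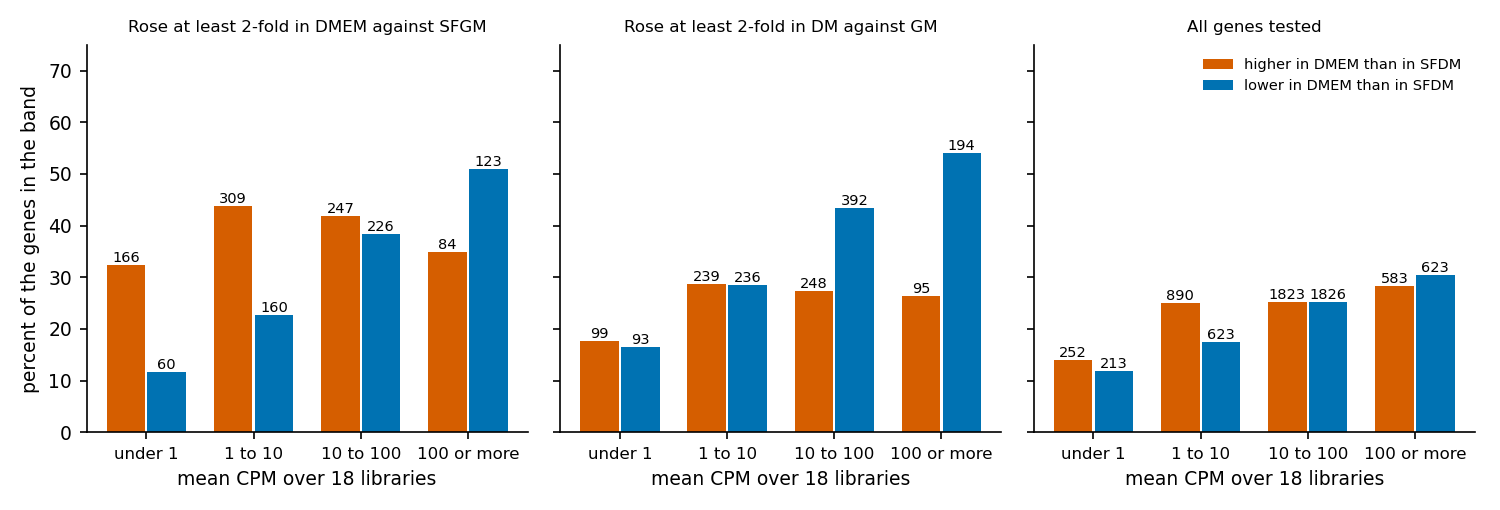
Share of genes (vertical axis, percent) called higher or lower in DMEM than in SFDM, by the mean level over 18 libraries (horizontal axis, CPM), for genes with a rise of 2-fold or more in DMEM against SFGM (left), genes with a rise of 2-fold or more in DM against GM (middle) and all genes tested (right), with gene counts above the bars. At 100 CPM or more, lower genes outnumber higher ones in both groups of rising genes, at 123 against 84 and 194 against 95.

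Abundant rising genes also had smaller log2 responses in DMEM than in DM, each taken from its own 0 h medium. Of the 241 at 100 CPM or more, 143 had a smaller log2 response in DMEM than in DM by the test of the difference and 51 a larger one, with a median difference of -0.65. The choice on DMEM against SFGM favours a larger response in DMEM. For the 513 rising genes below 1 CPM the balance was the other way, with 100 larger in DMEM and 25 smaller. With genes chosen on DM against GM, which favours a smaller response in DMEM, smaller responses outnumbered larger ones at every level, by 282 to 17 at 100 CPM or more and by 125 to 12 below 1 CPM, so that choice does not set the abundant genes apart.

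Taken directly, DMEM and SFDM at 72 h differed in 6833 genes (46.7% of those tested), 3548 higher in DMEM (24.2%) and 3285 lower (22.4%). With scaling by RLE size factors the higher genes made up 45.8% of the calls and with scaling by library totals alone 60.3%, against 51.9% in the reported test, so the balance of directions depends on scaling. The higher genes were of several kinds. In DMEM against SFGM, 1891 of them had risen, 684 had fallen and 973 were not called. The lower genes comprised 1558 that had fallen in DMEM, 994 that had risen and 733 without a call. Genes with large falls in DMEM were often lower there than in SFDM. Of the 389 genes that fell 4- to 10-fold, 56.3% were lower than in SFDM and 9.77% higher, with a median log2 difference of -0.92, and of the 165 that fell 10-fold or more, the shares were 53.3% and 4.24% and the median was -1.52. For genes that rose 10-fold or more the split was 36.6% higher and 33.3% lower, with a median of 0.06. Choice on the DMEM libraries favours the directions of the falling genes. For all genes that fell at least 2-fold in DMEM, the median log2 difference was -0.45 at 10 to 100 CPM (390 lower, 76 higher). At 100 CPM or more it was -0.38 (82 lower, 16 higher). For genes that fell at least 2-fold in DM against GM, a choice outside the contrast, the medians were smaller. They were -0.17 at 10 to 100 CPM (404 lower, 207 higher) and -0.06 at 100 CPM or more (89 lower, 65 higher).

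In 730 genes (4.99% of those tested) DMEM was called higher than each of the 5 other media, and in 453 (3.09%) lower than each. The same count gave 393 highest (2.68%) and 411 lowest genes (2.81%) for SFDM. It gave 294 (2.01%) and 80 (0.547%) for SFB, and 557 (3.81%) and 425 (2.9%) for SFGM. The serum media had more, with 1166 (7.97%) and 1017 (6.95%) for DM and 1608 (11%) and 1423 (9.72%) for GM. The 730 genes had a median of 27.4 CPM in DMEM, 13.3 in SFDM, 15.2 in SFB, 13.9 in DM and 12.7 in SFGM, and 148 of them were at least 2-fold above the next highest medium by mean level. Of the 730, 427 rose in DM against GM and 101 fell, against 34.2% and 35.6% of all genes tested. All 730 rose in DMEM against SFGM by their choice. Among all genes that rose in DMEM, 71.6% rose in DM and 8.25% fell, so the 730 moved with DM less often. A level above that in DM was part of their choice. The 453 lowest genes had a median of 29.2 CPM in DMEM and 42.6 to 55.9 CPM in the other serum-free media. Of these 453, 326 fell in DM against GM, where 75.6% of all genes that fell in DMEM did so.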

How the data were processed

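Poly(A) RNA of 18 libraries, 3 from each of 6 media, was measured. The authors deposited counts, whole numbers of reads per Ensembl gene identifier. STAR 2.7, featureCounts and the bosTau9 assembly are named in the submitters' processing notes. The sources used here do not state the annotation release, counting parameters or strand setting, so overlapping genes, antisense partners and near-identical copies may share reads. All columns were matched to samples by their labels. The reference table of gene names matched 0 identifiers, so the gene lists, panel and cell type markers drawn up for this work were not used.

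The two-sided quasi-likelihood test of edgeR 4.0.16 (R 4.3.3) was used, Benjamini-Hochberg adjusted over all genes. Each SE is the size of the log2 value divided by the square root of the test's F statistic. It is approximate where a group held few counts. Genes were kept by filterByExpr (minimum count 10, minimum total 15), libraries were scaled by TMM, and a mean per medium was fitted to all 18 libraries. Libraries held 16162525 to 28589018 counts. CPM use these totals multiplied by the TMM factors, on which 3 counts over a group correspond to 0.0351 to 0.0475 CPM. Chi-square per degree of freedom between replicates was at least 1.85, above sampling noise, and all were kept as replicates. On simulated counts for DMEM against SFGM (14472 genes tested, 50 changed at each fold), the test recovered 10% of 1.25-fold, 62% of 1.5-fold, 96% of 2-fold and 100% of 4-fold changes. Of the calls made there, 6.94% were false. All other genes were simulated without a change, whereas 63.4% were called in the data, so these rates do not carry over directly.

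The comparisons and gene groups were chosen with earlier results of these data known. The 4 named identifiers rose or fell most in DMEM against SFGM, 2 each way, out of 7347 with an adjusted p under 0.05, a mean of 5 CPM or more in DMEM or SFGM, and groups without overlap. Alternatives were RLE scaling, library totals, no or a stricter filter, DESeq2 1.42.0, only the compared media and the replicate letter as a block. A tested 1.5-fold change, other level limits and leaving out each library of the media compared were also used. Choosing genes on DM against GM was added after the data were seen.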

Additional observations from a re-analysis of the deposited data

Results flagged for a closer look

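The responses in DMEM (against SFGM) and in DM (against GM) differed by an interaction test in 5874 genes (edgeR quasi-likelihood test, adjusted p under 0.05). Of the 4 named identifiers, 2 passed it. ENSBTAG00000009012 fell further in DMEM (log2 difference -3.32 ± 0.18, SE, edgeR adjusted p = 3.44e-10). It started at 269 CPM in SFGM and 16.8 CPM in GM and ended at 1.90 CPM in DMEM and 1.18 CPM in DM. ENSBTAG00000023659 also fell further in DMEM (log2 difference -2.45 ± 0.41, SE, edgeR adjusted p = 0.000133), from 175 CPM in SFGM against 62.2 CPM in GM, to 1.77 CPM in DMEM against 3.49 CPM in DM. For both, every SFGM library lay above every GM library.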

How the results depend on the processing

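DMEM against SFGM called 9273 genes, and 8551 to 9037 when a library was left out. Only libraries of the media compared were left out, here and below. DMEM against SFDM called 6833, and 5930 to 6611 without a library. The difference between the responses in DMEM and DM called 5874, and 5236 to 5917 without a library. Counts moved by over 1.5 times only when a change of more than 1.5-fold was tested for (4228, 1988 and 2343 genes), a stricter question by construction. Replicates with the same letter did not deviate together in DMEM and SFGM (correlations across genes of -0.127, 0.00203 and -0.324 for A, B and C). In DMEM and SFDM they were 0.280, 0.0265 and 0.412, and each library correlated best with its own letter. In DM and GM all were above 0.1 (0.131, 0.184 and 0.426). With the replicate letter as a block, 9077, 6657 and 5665 genes were called over all libraries, and 8114, 8718 and 5593 with only the compared media. Switched-on genes numbered 47 (45 to 50 without a library, 104 with limits of 1 and 5 CPM) and switched-off genes 7 (6 to 8 without a library, 13 with limits of 0.5 and 5 CPM, 35 with 1 and 5 CPM). The 4 named identifiers kept their direction and call in DMEM against SFGM under all 14 alternatives, with log2 fold changes of 9.97 to 11.94 for ENSBTAG00000021685 and 9.58 to 10.44 for ENSBTAG00000008329. The uncalled response differences of ENSBTAG00000008329 and ENSBTAG00000021685 reversed to -1.22 without GM replicate B and to -0.12 without GM replicate C, with a highest value of 2.30 without GM replicate A and 2.56 without SFGM replicate A (edgeR adjusted p = 0.583 and 0.950, range over the alternatives 0.285 to 0.618 and 0.150 to 0.950). ENSBTAG00000023659, uncalled in DMEM against SFDM (edgeR adjusted p = 0.0698), passed in 3 of 14 alternatives, one of them without DMEM replicate C (edgeR adjusted p = 0.0286). The median log2 difference between DMEM and SFDM of rising genes at 10 to 100 CPM, 0.01, reversed to -0.0346 with RLE scaling and -0.19 for genes chosen on DM against GM. At 1 to 10 CPM that choice gave -0.000538. Scaling by totals moved the median of all genes from -0.03 to -0.14 in DM against GM. The causes were not tested. Below 1 CPM, few counts limit what could be detected.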

Other observations

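Where DMEM and SFDM differed, neither medium was nearer to the level in DM throughout, by distance in mean log2 CPM. SFDM was nearer somewhat more often in both directions. Of the 3548 genes higher in DMEM than in SFDM, DMEM was nearer for 1648 and SFDM for 1900. Of the 3285 lower ones, DMEM was nearer for 1454 and SFDM for 1831. The groups that changed most in DMEM split by direction. Of the genes that fell at least 2-fold in DMEM and were lower there than in SFDM, 460 of 712 were nearer to DM in DMEM. Of the genes that rose at least 2-fold and were lower in DMEM than in SFDM, 372 of 569 were nearer to DM in SFDM. Those that rose at least 2-fold and were higher in DMEM divided into 412 nearer in DMEM and 394 nearer in SFDM. Of the switched-on genes, SFDM was nearer for 14 of the 21 that were higher in DMEM and for 12 of the 18 that were lower. The groups were chosen on the DMEM libraries, and no test was run on these counts.

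In DMEM the 10 most abundant identifiers of each library held 10.4% to 11.4% of its counts, between 8.90% to 9.42% in SFGM and 12.9% to 13.7% in SFDM. The number of identifiers at 1 CPM or more was 12754 to 12796 in DMEM, above the 12473 to 12543 of SFGM and overlapping the 12686 to 12767 of SFDM.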
